A study of Mus musculus with 6 samples.

Results

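The genes described here are the 5 subunits of the transcription factor NF-kB (Rela, Relb, Rel, Nfkb1 and Nfkb2) and 5 of its inhibitors and cofactors (Nfkbia, Nfkbib, Nfkbie, Tnfaip3 and Bcl3). They were chosen by gene symbol, and each of the 10 was found on exactly 1 row, among 22001 symbols on rows that name a single gene. NF-kB dimers are held inactive in the cytoplasm by IkB proteins. In the canonical arm, the IKK kinase complex marks IkB proteins for degradation and frees dimers such as RelA with p50. In the non-canonical arm, the kinase NIK (Map3k14) leads to processing of p100 to p52 and to RelB dimers. NF-kB raises transcription of several of its own inhibitors, which limits the response, and in the mammary gland the RANK and IKK-alpha route to NF-kB is known for its part in epithelial growth.

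The samples were epithelial cells enriched from mammary tumors of 7-week-old female FVBN mice, with 3 samples labelled PyMT Elp3 cKO and 3 labelled PyMT control, each from a different mouse. All carried the polyoma middle T oncogene (PyMT), and in the Elp3 cKO group Elp3, the catalytic subunit of the tRNA-modifying Elongator complex, was deleted with MMTV-CRE, a Cre recombinase under the promoter of the mouse mammary tumor virus. The labels do not say whether control tumors carried the Cre. Sequencing was of polyA RNA. The deposited unit is FPKM, which divides fragments by transcript length and library size, so levels of different genes can be set side by side per length.

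Same-numbered Elp3 cKO and control columns were equal in every row, with 0 of 24308 rows differing for numbers 1, 2 and 3. The table therefore holds 3 distinct profiles, each carrying an Elp3 cKO and a control label, and no test between genotypes can be made from it. The profiles are called 1, 2 and 3 by their replicate number, which implies no order. Summed FPKM was between 622000 and 637000 and 11380 to 11569 rows reached 1 FPKM, while the table gives no counts from which counting error could be taken. Luminal markers were abundant in all 3 profiles, with summed levels over 6 genes of 8902, 9731 and 9801 FPKM in profiles 1, 2 and 3. The 6 basal markers summed to 518, 659 and 576 FPKM. Among them the contractile genes Acta2 and Myh11 had 18.5, 34.3 and 74.0 FPKM and 0.865, 2.71 and 5.70 FPKM. The other 4 basal markers, Krt5, Krt14, Krt17 and Trp63, were highest in profile 2, and Krt14 and Trp63 were lowest in profile 3. Both profiles 1 and 3 differed from the others in further markers. The 8 salivary gland markers summed to 1.33, 1.33 and 1003 FPKM and the 5 endothelial markers to 25.8, 27.3 and 11.97 FPKM. The 6 fibroblast markers summed to 70.8, 149 and 245 FPKM, with all 6 lowest in profile 1. In RNA from a cell mixture, fewer cells of a type and less RNA per cell cannot be told apart.

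All 10 genes were expressed, 8 of them with a mean of 10 FPKM or more. Their levels ran from the IkB-alpha gene Nfkbia at a median of 173 FPKM to Rel at 1.89 FPKM. Setting the median of the 10 genes beside that of the 10770 genes that averaged at least 1 FPKM gave 31.7 against 12.3 FPKM in profile 1, 27.1 against 12.5 in profile 2 and 30.7 against 12.8 in profile 3. By mean level, Nfkbia ranked 396 among these 10770 genes, Rela 1142, Nfkbie 8434 and Rel 9902. The order of the 10 genes was the same in every profile except that Relb and Nfkb1 exchanged places in profile 2. Neighbours in that order whose ranges over the profiles overlapped were Bcl3 with Relb, and Relb with Nfkb1.

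**Figure D1:**
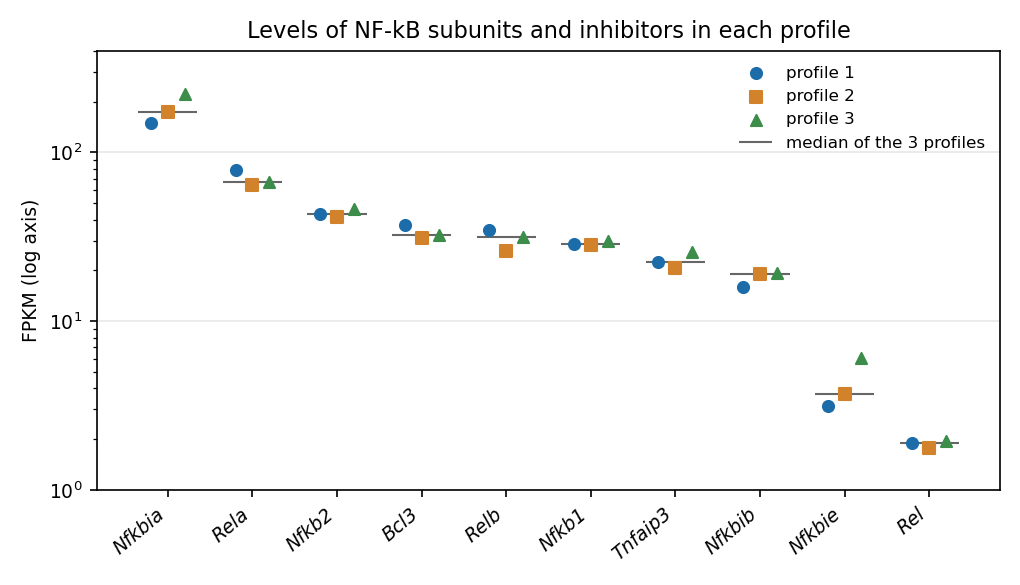
Level of each of the 10 genes in FPKM (log axis) in profiles 1, 2 and 3 (points), with the median of the 3 profiles as a line, ordered by that median. Nfkbia lies above all others at 149.7 to 223 FPKM, 7 genes lie between 16.02 and 78.5 FPKM, and Nfkbie and Rel lie under 7 FPKM.

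The RelA gene (p65, the main activating subunit of the canonical arm) was the highest of the subunits. Rela stood at 78.5, 64.2 and 66.9 FPKM in profiles 1, 2 and 3. Profile 1 was the high one, and the highest value was 1.22 times the lowest. The row covers chromosome 19, 5637490 to 5648132 (mm10), and no exon of another gene overlaps the exons of Rela in the GENCODE M21 annotation of the same build. Relb, the subunit that pairs mainly with p52 in the non-canonical arm, stood at 34.7, 26.0 and 31.7 FPKM. Here profile 2 was the low one and the span was 1.33-fold, the widest among the subunits.

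Rel encodes c-Rel, a subunit known mainly from lymphoid cells. It had 1.89, 1.78 and 1.95 FPKM, a narrow span of 1.09-fold at a low level in every profile. The FPKM of Rela exceeded it by 34.4 to 41.4 times. Lymphocyte markers were close to absent from the same profiles: none of 6 measured genes reached a mean of 1 FPKM, 2 (Cd3g and Ms4a1) were listed at 0 in all profiles, and the sum over the list was 0.550, 0.463 and 0.523 FPKM. Of 6 measured macrophage and myeloid markers 2 had a mean of 1 FPKM or more, with a list sum of 4.16, 3.41 and 5.52 FPKM. The part of such cells in the level of Rel was not tested.

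The precursor genes were both well expressed. Nfkb1, which encodes p105 and its product p50, had 28.7, 28.1 and 29.8 FPKM, the narrowest span of the 10 genes at 1.06-fold. Nfkb2, which encodes p100 and p52, had 43.1, 41.2 and 46.3 FPKM. Nfkb2 exceeded Nfkb1 in each profile, by 1.503, 1.464 and 1.556 times, and their ranges did not overlap. The library protocol is not described as keeping strand, and the opposite-strand genes AC114539.1 and Psd share 11.6% and 6.52% of the annotated exon bases of Nfkb2, so reads in those bases cannot be told apart. Psd, whose row carries the same locus in the table, stood near 1 FPKM (0.991, 0.9997 and 1.11 FPKM). That locus, chromosome 19, 46304737 to 46327156, runs past the annotated end of Nfkb2 at 46312385.

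Taken as parts of the summed subunit FPKM, the make-up was alike in the 3 profiles. Rela made up 42.0%, 39.8% and 37.9% of the sum in profiles 1, 2 and 3, Nfkb2 23.1%, 25.5% and 26.2%, Relb 18.6%, 16.1% and 17.9%, Nfkb1 15.3%, 17.4% and 16.9%, and Rel 1.014%, 1.106% and 1.101%. These are shares of transcripts and not of protein, which for Nfkb1 and Nfkb2 depends also on processing of the precursors.

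Among the classical IkB genes, Nfkbia dominated. Nfkbia, encoding IkB-alpha, an inhibitor that NF-kB rapidly re-induces, had 149.7, 173 and 223 FPKM in these profiles. Profile 3 was the high one, at 1.49 times profile 1. Nfkbib, encoding IkB-beta, had 16.02, 19.0 and 19.3 FPKM, with profile 1 the low one. Nfkbie, encoding IkB-epsilon, had 3.16, 3.71 and 6.03 FPKM. Profile 3 again was the high one, at 1.90 times profile 1 and 1.63 times profile 2. Nfkbia made up 88.4% to 89.8% of the summed FPKM of the 3 genes, and Nfkbie 1.87% to 2.43%.

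All 3 IkB genes were lowest in profile 1, as were 40.1% of all genes that averaged at least 1 FPKM, while Rela was highest there. The FPKM ratio of Nfkbia to Rela was 1.91 in profile 1, 2.69 in profile 2 and 3.33 in profile 3. Summed over the classical IkB genes and over the subunits, the ratio was 0.904, 1.21 and 1.40. With 1 profile per number there is no replicate error for these ratios and no test. The fibroblast marker sum and the levels of Acta2 and Myh11 given above were likewise lowest in profile 1 and highest in profile 3. The other 4 basal markers were highest in profile 2. The part of cells with these markers in these ratios was not tested. The deposited Nfkbia row carries a merged locus on chromosome 12, 55280762 to 55492647, that other rows such as those of Psma6 and Ppp2r3c share, whereas the annotated Nfkbia gene spans 55489410 to 55492647 and overlaps no exon of another gene. How fragments were divided within the merged locus is not stated in the sources used here. Psma6, a proteasome subunit gene, stood at 151, 171 and 163 FPKM in profiles 1, 2 and 3. The part of the shared locus in the values of Nfkbia was not tested. For Nfkbib, the opposite-strand gene Ccer2 shares 14.5% of its exon bases and Sirt2 shares 1.94%. The deposited Nfkbib row shares its locus with the row of Gm6537. It starts at 28756174 on chromosome 7, before the annotated start of the gene at 28758251.

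**Figure D2:**
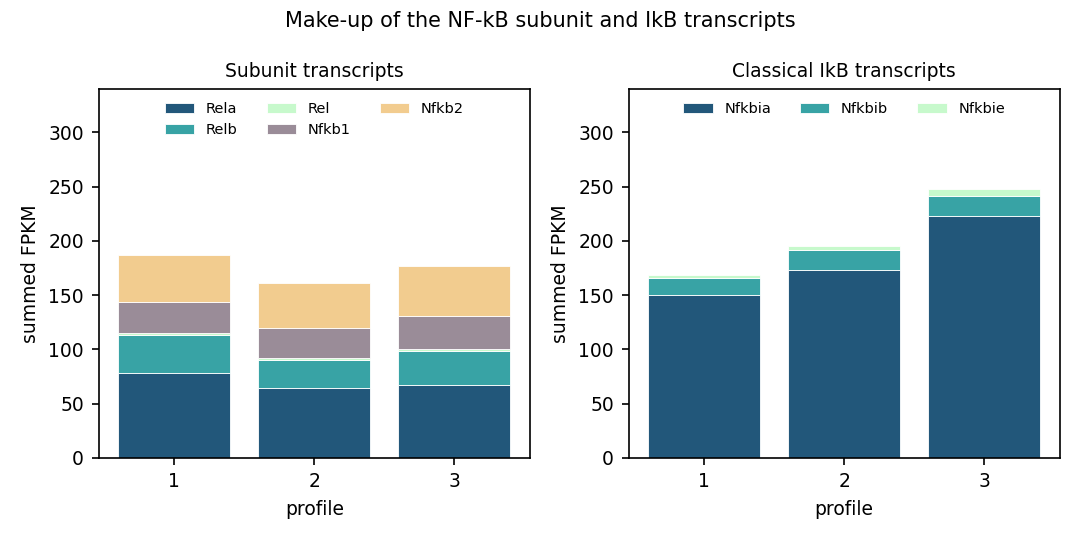
Stacked bars of FPKM for the 5 subunit genes (left) and the 3 classical IkB genes (right) in profiles 1, 2 and 3. The subunit sums are 187, 161 and 177 FPKM, whereas the IkB sums are 169, 196 and 248 FPKM and are mostly Nfkbia.

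The remaining members act outside the classical IkB group. Tnfaip3 encodes A20, an enzyme that edits ubiquitin chains and shuts down signalling upstream of IKK. Its level was 22.5, 20.7 and 25.8 FPKM, with profile 3 highest, and its row covers chromosome 10, 19000868 to 19015410. Bcl3, an atypical nuclear IkB protein that binds p50 and p52 dimers and can activate transcription, had 37.1, 31.1 and 32.5 FPKM and was highest in profile 1. Bcl3 lies 179 kb from Relb on chromosome 7. On the opposite strand, Gm16175 shares 6.51% of the exon bases of Bcl3.

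Several of these genes are reported as NF-kB targets in their own right, and sequence before their start sites was therefore read for the kappaB consensus, the 10-letter binding motif of NF-kB, on both strands. RefSeq windows (GRCm38.p6, 250 bases before to 50 after a start) were held for 8 of the 10 genes. A match was present in a window of 6 of them, Nfkbia, Tnfaip3, Nfkb2, Rel, Nfkbie and Bcl3, against 5.14% of 27025 genes with such windows. A gene counted if any of its windows held a match. Nfkb2 had 3 windows and Tnfaip3 2, where all 27025 genes had 32851. Because the genes include reported targets, the comparison is no independent support. The windows of Rela and Nfkbib held none, which says only that these letters are not in those windows. A match is a description of sequence and not evidence of binding in these tumors. The 5 stretches that follow lie upstream of the RefSeq start used and each shows 1 match or 1 run of overlapping matches of its gene, in capitals. They are written 5′ to 3′ on the strand of the gene. Those of Nfkb2 and Tnfaip3 lie within the spans that GENCODE M21 gives these genes, 46304320 to 46312385 and 19000910 to 19015657.
Nfkbia, chr12:55492648-55492767, minus strand: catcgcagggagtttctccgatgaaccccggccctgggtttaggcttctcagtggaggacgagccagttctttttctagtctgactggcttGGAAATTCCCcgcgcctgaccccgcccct
Tnfaip3, chr10:19015411-19015530, minus strand: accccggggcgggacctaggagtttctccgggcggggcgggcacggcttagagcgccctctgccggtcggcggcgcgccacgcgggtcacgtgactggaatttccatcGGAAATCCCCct
Nfkb2, chr19:46304688-46304717, plus strand: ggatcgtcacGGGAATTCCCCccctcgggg
Rel, chr11:23771037-23771089, minus strand: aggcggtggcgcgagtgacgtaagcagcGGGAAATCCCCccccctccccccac
Nfkbie, chr17:45555580-45555699, plus strand: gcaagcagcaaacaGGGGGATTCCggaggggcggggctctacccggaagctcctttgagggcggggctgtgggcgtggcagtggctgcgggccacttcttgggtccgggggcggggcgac
The match shown, or the first of its run, began 29 bases before the start in Nfkbia, 12 in Tnfaip3, 39 in Nfkb2, 92 in Rel and 106 in Nfkbie. Matches not shown were 1 in Tnfaip3 at 125 bases before the start, 1 in Nfkb2 at 11 bases before the same start, 2 in Nfkb2 at 236 and 225 bases before its other starts, and 1 in Bcl3 after the start. In Nfkb2 and Rel the capitals are 2 or more overlapping matches. Genes with a match stood at both ends of the range of levels, Nfkbia the highest and Rel the lowest.

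The 10 genes varied between profiles about as much as genes in general. The median ratio of the highest to the lowest profile was 1.21 over the 10 genes, beside 1.23 over all genes that averaged at least 1 FPKM. Of the 10 genes 1, Nfkbie, spanned 1.5-fold or more, where 18.5% of all such genes did, and Nfkbia was just under that fold. Between profiles 1 and 2 alone, without profile 3, 0 of the 10 did, against 8.62% of all genes. By profile, 7 of the 10 genes were highest in profile 3, where 36.5% of all genes were, 3 were highest in profile 1 (background 34.8%), and none was highest in profile 2 (28.7%). Conversely, 7 were lowest in profile 2 (background 28.3%) and 3 in profile 1 (40.1%), and none in profile 3 (31.5%). These counts rest partly on small differences, profile 3 exceeding the next profile by 1.03 times for Rel, 1.04 times for Nfkb1 and 1.02 times for Nfkbib. Rel was highest in profile 1 under quantile normalization as well as median-ratio scaling, and Nfkbib was highest in profile 2 under quantile normalization. With median-ratio scaling 6 genes were highest in profile 3, where 33.7% of all genes were, and with quantile normalization 5, against 30.8%. Without profile 3, 7 genes were highest in profile 1 and 3 in profile 2, and the share over all genes is not given for that pair. Profile 3 also carried the salivary and most of the fibroblast markers, 8 of 8 and 5 of 6 being highest there. Acta2 and Myh11 were highest there too, whereas the other 4 basal markers were highest in profile 2. The part of cells with these markers in the values of Nfkbia and Nfkbie was not tested.

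**Figure D3:**
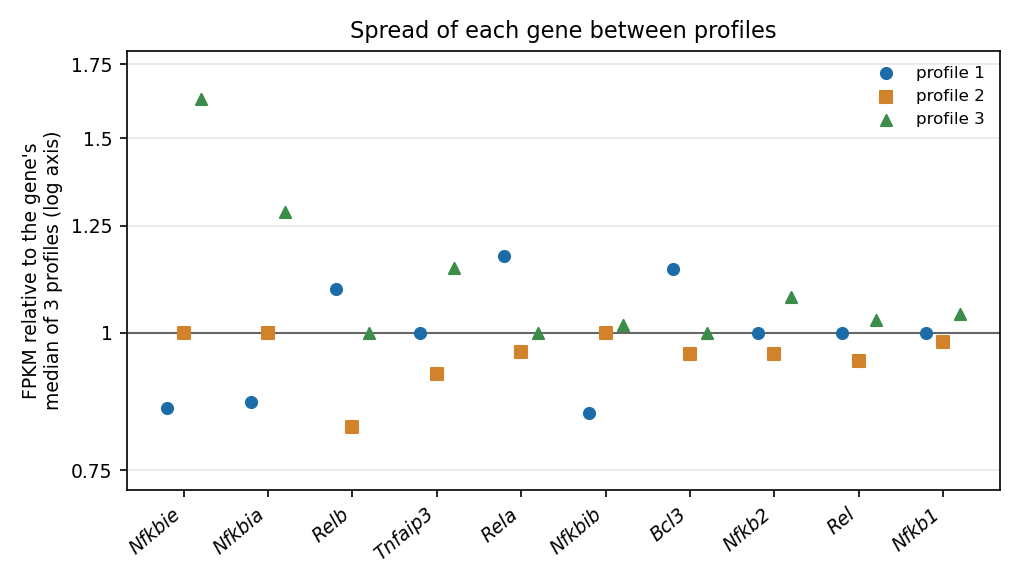
FPKM of each gene in profiles 1, 2 and 3 relative to the gene's median over the 3 profiles (log axis), ordered by the ratio of highest to lowest. Nfkbie and Nfkbia have the widest spans, 1.90-fold and 1.49-fold, with profile 3 above the other profiles, and Nfkb1 the narrowest at 1.06-fold.

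Transcripts of the upstream pathway were found in the same profiles, with the ligands the lowest group. Of 8 measured ligand genes 2 had a mean of 1 FPKM or more: Tnf, at 1.91, 1.64 and 2.94 FPKM, and Il1a, an alarm cytokine, at 0.845, 0.831 and 1.48. Lta, lymphotoxin-alpha, followed at 0.538, 0.286 and 0.286 FPKM. The RANK ligand gene Tnfsf11 had 0.0478 FPKM in profile 3 and was listed at 0 elsewhere, and Cd40lg at 0 in all. Receptors were present, 10 of 11 having a mean of 1 FPKM or more. The highest was Tnfrsf12a, the receptor of the cytokine TWEAK, at 406, 355 and 391 FPKM, above the level of Nfkbia. The gene of TWEAK itself, Tnfsf12, stands on a row naming several genes and is not among the 8 ligands. Tnfrsf1a, the main TNF receptor, had a median of 56.6 FPKM (51.8 to 59.7) and Ltbr, the lymphotoxin-beta receptor, 42.6 (38.1 to 42.6). RANK, encoded by Tnfrsf11a, stood at 5.06 (4.60 to 5.39), and the interleukin-1 receptor gene Il1r1 at 2.43 (1.64 to 2.91).

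All 10 genes listed for the IKK complex and related kinases had a mean of 1 FPKM or more, and none spanned 1.5-fold. The catalytic subunits of IKK stood at similar levels, Chuk (IKK-alpha) at 23.6 FPKM (22.9 to 26.4) and Ikbkb (IKK-beta) at 27.1 (22.6 to 29.2), with overlapping ranges. Ikbkg, the regulatory subunit NEMO, had 19.1 (17.1 to 20.04). Tab2, an adaptor of the kinase TAK1, led the list at 42.1 (38.4 to 44.6). Map3k14, the kinase NIK of the non-canonical arm, was low at 2.52, 3.04 and 3.73 FPKM. Traf2 and Traf3, which keep NIK protein low, had 14.7 (14.4 to 15.8) and 10.3 (9.19 to 10.6). Of 15 measured adaptors and ubiquitin ligases 14 had a mean of 1 FPKM or more, the highest by mean being Irak1 at 35.3 (31.4 to 40.8), Rbck1 at 32.2 (31.9 to 36.35) and Myd88 at 17.9 (17.4 to 20.8).

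Each gene's median of the 3 profiles had a median of 13.4 FPKM over other inhibitors and atypical IkB genes, against 30.2 FPKM over the 10 genes. Of 11 measured genes 10 had a mean of 1 FPKM or more, and Tnip3, at 0.157, 0.175 and 0.328 FPKM, did not. Rnf11, a partner of A20 in ubiquitin editing, had 168 FPKM (149 to 183), and Tax1bp1, another partner of A20, had 81.6 (68.6 to 87.4). Nfkbiz, an atypical nuclear IkB gene, had 42.4, 41.9 and 41.5 FPKM, above Bcl3 in each profile. Tnip1, which works with A20, had 13.5, 19.5 and 21.2 FPKM, and Cyld, a deubiquitinase, had 9.37 (9.26 to 10.6).

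**Figure D4:**
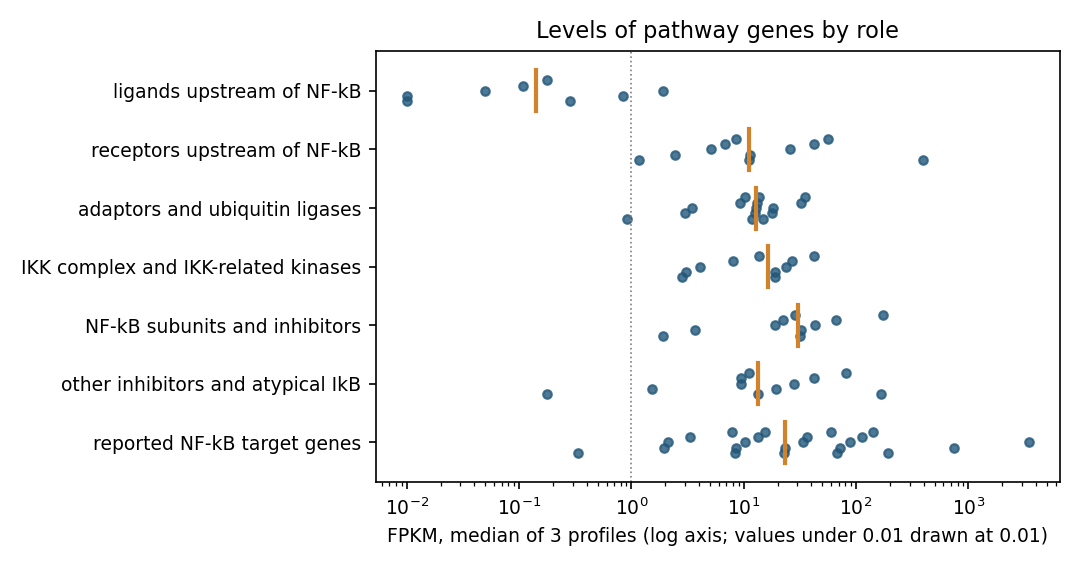
Level of each measured pathway gene as the median FPKM of the 3 profiles (points, log axis, values under 0.01 drawn at 0.01), by role, with the median over each group as a vertical bar and 1 FPKM as a dotted line. Ligands lie mostly under 1 FPKM, with a median of 0.142 FPKM, whereas the medians of the other groups lie between 11.1 and 30.2 FPKM.

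Reported target genes of NF-kB spanned 1.5-fold in a larger share than the 10 genes did, a difference that was not tested. Of 22 with a mean of 1 FPKM or more, 17 were highest in profile 3, where 36.5% of all genes were, and 14 spanned 1.5-fold or more, where 18.5% of all genes did. Without profile 3, 8 of the 22 spanned that fold, against 8.62% of all genes, without profile 1 the count was 7, against 8.55%, and without profile 2 it was 13, against 13.4%. The highest in level were the siderophore binder Lcn2, at 2913, 3439 and 4169 FPKM, the stress-response gene Ier3, at 749, 681 and 792, and Gadd45b, at 158, 191 and 202. None of these 3 spanned 1.5-fold, the ratios of highest to lowest being 1.43, 1.16 and 1.28. These targets answer to other regulators too, and the list shares profile 3 with the marker differences given above, whose part was not tested.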

How the data were processed

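Epithelial cells of 6 tumors were profiled by RNA sequencing. The submitters' processing notes name mm10 and the tools TopHat2 2.0.9, Cufflinks 2.1.1 and Cuffdiff, with no annotation or filter. The authors deposited a workbook sheet of FPKM per gene, of which a text copy was used. Column names gave the samples, and starts were raised by 1. Rows without a symbol (1366, holding 7.84% to 11.9% of summed FPKM) and 514 rows naming several genes were left out of gene results. The table gives no counts, so no counting interval is given.

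The 10 genes and all lists were chosen with earlier results of these data known. Named were all 10 genes, the 3 highest of each other pathway list by mean and a fixed set for the canonical and non-canonical arms. Outside that rule, Tnfsf11, Tnfsf12, Cd40lg, Tnip3, Cd3g, Ms4a1 and the basal markers were named as well. Psd, Psma6, Ppp2r3c and Gm6537 were named as rows sharing a locus. Otulin was looked up as Fam105b, and some marker genes are not reported here. A limma fit between genotypes was planned and not run, because same-numbered columns are identical. Values per profile, medians, ranges and counts beside the background over all genes were computed with Python 3.11.15, pandas 2.3.3 and numpy 2.4.6, and the functions were tested on simulated data. Alternatives were other scalings, minimum levels, summed rows and leaving out each number.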

Additional observations from a re-analysis of the deposited data

How the results depend on the processing

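No paired analysis was possible because Elp3 cKO and control columns of the same number are identical, and the planned genotype settings were not run for the same reason. The levels of the 10 genes moved by less than 1 SD of the profiles in all 20 combinations of gene and scaling. For median-ratio scaling that outcome was fixed by its size factors of 0.982, 1.005 and 1.009. They are too near 1 to move any of these levels by 1 SD, so that scaling does not test stability. Leaving out 1 of 3 values cannot move a median by 1 SD, and summing rows changes nothing for genes on 1 row, so those settings say nothing of stability. The median of the 10 genes was taken in each profile, and the median of these values over the profiles was 30.7 FPKM. It was 30.3 under quantile normalization and 30.5 after median-ratio scaling, and ranged over 28.9 to 31.2 when replicate numbers were left out in turn. The count of genes highest in profile 3 was 7 and lay between 7 and 10 when a replicate number was left out. That in profile 1 was 3 and lay between 3 and 7, and that in profile 2 was 0 and lay between 0 and 3. The share of all genes highest in each profile is not given for these reduced sets, so these counts cannot be set against it. Under quantile normalization 1 gene, Nfkbib, was highest in profile 2. The count spanning 1.5-fold was 1, where 18.5% of all genes did. It was 1 without profile 1 (8.55% of all genes), 1 without profile 2 (13.4%) and 0 without profile 3 (8.62%). Among genes that average at least 5 FPKM it was 0, since Nfkbie is under that level, against 11.9% of 8098 genes. Only 3 profiles limit the precision.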

Other observations

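The table has a further column, the authors' summary over several FPKM values. Multiplied by 9, its values between 10 and 1000 had no more than 4 decimals (to within 1e-07) in 85.4% of 6491 rows. The best other whole multiplier up to 12 reached 28.5%, and with each profile entered 2 times no row gave a remainder below 0 (0 rows). Entering each profile fewer times could not give a remainder below 0 either, so this check does not establish the 2 entries. The number of values not listed, and their mean, rest on that assumption. If the summary is read as a mean over 9 values in that way, 3 values are not listed, and their mean can be computed for each gene, without knowing which samples they are. This reading was chosen after seeing the data.

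On that reading, the mean of the values not listed was 8.88 FPKM for Tnfaip3, against 20.7 to 25.8 FPKM in the 3 profiles, a ratio of 0.394 to their median. Of 10770 genes, 5.21% had a ratio of 0.5 or less. Nfkbie lay on the other side, at 6.74 FPKM against 3.16 to 6.03 in the profiles, a ratio of 1.82 to their median, and 11.1% of genes had a ratio of 1.5 or more. For the other genes the ratio was between 0.756 (Relb) and 1.11 (Nfkb1), Nfkbia and Rela lying within the range of the profiles. A mean of 3 values carries no spread here, so no test was made.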
